A study of Mus musculus with 3 samples.

Results

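Transforming growth factor beta (TGF-beta) signalling was described through 10 genes in group 2 innate lymphoid cells (ILC2s): the ligand genes Tgfb1, Tgfb2 and Tgfb3, the receptor genes Tgfbr1, Tgfbr2 and Tgfbr3, and the SMAD genes Smad2, Smad3, Smad4 and Smad7. The genes were chosen by name as the core of the pathway, and all 10 were found among the 27179 Entrez gene IDs of the count table. ILC2s are lymphocytes without rearranged antigen receptors that release type 2 cytokines in tissues. The study sequenced RNA of 3 ILC2 libraries, which its design text assigns to 3 wild-type mice. The strain was C57BL/6, and the sort took cells with CD45, CD127, KLRG1 and CD90.2 on their surface and without CD3, CD5, CD8, NK1.1, CD11b, CD11c and B220. All 3 libraries form 1 group, so no treated or mutant sample stands beside them. No tissue, age, sex or time of collection is stated in the labels.

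The TGF-beta ligands are made as latent dimers that have to be released before they can signal. The active ligand binds the type II receptor encoded by Tgfbr2, which phosphorylates the type I receptor encoded by Tgfbr1. The type I receptor then phosphorylates SMAD2 and SMAD3, which enter the nucleus with SMAD4, while SMAD7 blocks the receptor. In mice the pathway is known to restrain T cell responses and to take part in the development and tissue adaptation of innate lymphoid cells.

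The libraries of mice 1, 2 and 3, numbered by their titles, held 22112425, 17819551 and 26374248 counts in total. Levels are counts in 1000000 (CPM) after TMM scaling in edgeR, which corrects for differences in library composition. A gene was called detected at 1 CPM or more in each of the 3 libraries. The 10 ILC2 marker genes checked were all detected, with a summed level of 7229 to 9346 CPM. Among them Klrg1 and Il7r encode KLRG1 and CD127, on which the cells were sorted. Of 5 ILC3 markers 3 were detected, while Il23r had at most 3 counts in a library and Ccr6 none. The 8 B and plasma cell markers summed to 10721, 32177 and 53363 CPM in mice 1, 2 and 3, most of it Igkc and Jchain, with 5 of 8 detected and Ms4a1 and Pax5 at 0. This sum exceeded that of the ILC2 markers in each mouse. The 7 T cell markers summed to 25.4, 24.0 and 20.8 CPM with 3 of 7 detected, and the 6 epithelial markers summed to 29.4, 9.78 and 25.8 CPM with 1 of 6 detected (Epcam) and Cdh1 and Krt20 at 0. In bulk RNA, fewer cells of a type and less RNA per cell cannot be told apart. The SD over mice also holds variation from the sort and the amplification.

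Of the 10 genes, 7 were detected: Tgfb1, Tgfbr1, Tgfbr2, Smad2, Smad3, Smad4 and Smad7. The share detected among all gene IDs was 31.1%. The pathway was thus represented by 1 ligand, both signalling receptors, both receptor-activated SMADs, the common SMAD and the inhibitory SMAD. The 3 genes that were not detected, Tgfb2, Tgfb3 and Tgfbr3, each had reads mainly in 1 or 2 libraries. None of the 10 lacked counts altogether, while 12087 of all 27179 gene IDs did.

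The promoters of a detected ligand, an undetected ligand and the highest receptor are shown because the ligands, which bind the same receptors, had such unlike levels. Each sequence is the 250 bases before a transcript start from RefSeq, build GRCm38.p6, on the strand of the gene. For Tgfb1 and Tgfbr2 this is the outermost start of the gene, whereas the Tgfb2 window precedes an internal start, since the gene extends to 186709697 on chromosome 1. Capitals mark GC boxes (GGGCGG or its reverse complement CCGCCC) and the TATA box sequence TATAAA, searched on both strands. The windows are Tgfb1 at chr7:25686752-25687001 (plus strand), Tgfb2 at chr1:186705990-186706239 (minus strand) and Tgfbr2 at chr9:116175364-116175613 (minus strand).
Tgfb1: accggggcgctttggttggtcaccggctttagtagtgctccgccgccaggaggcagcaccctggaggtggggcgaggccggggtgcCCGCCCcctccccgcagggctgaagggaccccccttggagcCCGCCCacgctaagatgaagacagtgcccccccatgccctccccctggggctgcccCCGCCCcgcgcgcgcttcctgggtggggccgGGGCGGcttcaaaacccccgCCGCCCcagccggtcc
Tgfb2: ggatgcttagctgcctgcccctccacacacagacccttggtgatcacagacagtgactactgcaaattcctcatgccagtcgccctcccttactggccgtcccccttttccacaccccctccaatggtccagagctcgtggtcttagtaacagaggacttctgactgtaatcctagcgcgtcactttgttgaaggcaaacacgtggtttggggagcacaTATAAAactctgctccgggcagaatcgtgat
Tgfbr2: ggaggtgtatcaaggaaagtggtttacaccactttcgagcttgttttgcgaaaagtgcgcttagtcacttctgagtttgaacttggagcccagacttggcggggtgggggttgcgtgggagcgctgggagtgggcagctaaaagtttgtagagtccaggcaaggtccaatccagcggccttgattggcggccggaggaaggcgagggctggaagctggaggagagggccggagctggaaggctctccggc

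The Tgfb1 window held 5 GC boxes, 21 CpG dinucleotides and a GC content of 75.2%. Of 32851 promoter windows of this length, 1.93% held 5 or more GC boxes and 32.7% held at least 1. The Tgfb2 window, at its internal start, held 0 GC boxes, 8 CpG dinucleotides and 1 TATAAA, a sequence found in 12.4% of all windows. The Tgfbr2 window held neither motif and had 12 CpG dinucleotides. The windows of Smad3 and of the upstream start of Tgfbr1 held 2 GC boxes each, as 16.7% of all windows hold 2 or more. Among the 5 genes with a promoter entry, GC boxes thus stood before Tgfb1, Smad3 and Tgfbr1. Whether these motifs bear on the levels of the genes was not tested.

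Tgfb1 was the only detected ligand. It encodes the ligand that lymphocytes make most of and lies on chromosome 7 (25687002 to 25705077, GRCm38.p6). Tgfb1 had 18.8, 9.21 and 19.4 CPM in mice 1, 2 and 3, with 95% exact binomial intervals of 17.1 to 20.7, 7.85 to 10.7 and 17.8 to 21.2. Mice 1 and 3 were alike, and mouse 2 lay at about a factor of 2.11 below the highest, with an interval that did not overlap theirs. These intervals take each read as independent, though the reads carried no molecular identifiers. In edgeR the spread of Tgfb1 over the mice was not larger than the trend for genes of its abundance (log2 ratio -0.37). Tgfb1 contributed 80.0%, 98.9% and 99.8% of the summed level per exon length of the 3 ligands in mice 1, 2 and 3. Platelets and macrophages also carry Tgfb1 mRNA, and the summed levels of their markers were highest in mouse 2. The 5 platelet markers summed to 2.96, 7.68 and 3.49 CPM, with 1 of 5 detected (Pf4) and Itga2b, Gp9 and Gp1bb at 0. The 8 macrophage, monocyte and dendritic cell markers summed to 28.9, 45.4 and 26.0 CPM, with 2 of 8 detected (Lyz2 and Cd14) and Adgre1 and Flt3 at 0. The part of either in the Tgfb1 counts was not tested.

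Tgfb2 and Tgfb3 were carried by the library of mouse 1. Tgfb2 had 28, 2 and 1 counts in mice 1, 2 and 3, or 1.24, 0.114 and 0.0384 CPM. Tgfb3 had 55, 0 and 0 counts, or 2.43 CPM in mouse 1. Taking 3 counts as the limit that a count of 0 allows, Tgfb3 could have had up to 0.171 CPM in mouse 2 and 0.115 CPM in mouse 3, and the two-sided exact intervals reach 0.210 and 0.141 CPM. Both genes thus exceeded 1 CPM in mouse 1 and lay near or below the level of 3 counts in the other mice. Tgfb2 shares 124 exon bases with the antisense gene Gm29491 and Tgfb3 shares 257 with Gm48008 on the opposite strand. The library kit does not mark strand, so reads from these shared bases cannot be assigned to 1 of the genes. The 8 stromal and endothelial markers summed to 40.9, 25.7 and 25.7 CPM in mice 1, 2 and 3, with 3 of 8 detected and the endothelial genes Cdh5 and Kdr at 0. Most of this sum was Pecam1. The other stromal markers were divided: Col1a1, Col1a2 and Col3a1 were lowest in mouse 1, and Pdgfra and Pdgfrb were lowest in mouse 2. Pdgfra had 4, 1 and 3 counts and Pdgfrb 57, 26 and 107 counts in mice 1, 2 and 3. The part of stromal and endothelial cells in the Tgfb2 and Tgfb3 counts was not tested.

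**Figure D1:**
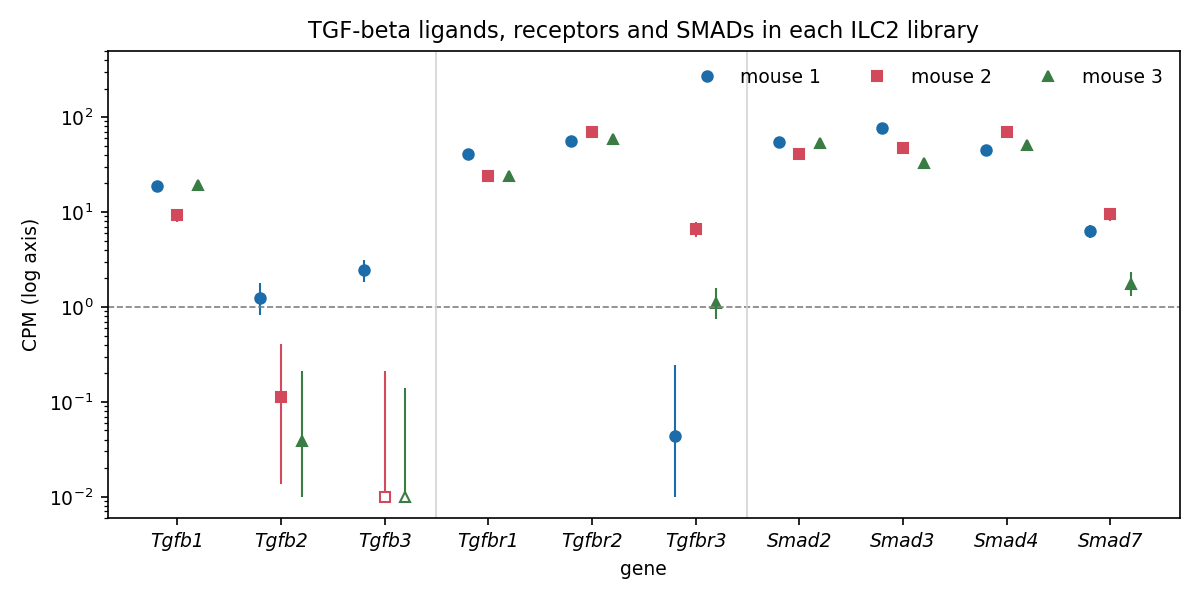
CPM of each of the 10 genes in each library on a log axis, with 95% exact binomial intervals and a dashed line at the detection minimum of 1 CPM. Open symbols near the bottom are counts of 0, and no interval is drawn below their level. Tgfb1, Tgfbr1, Tgfbr2 and the SMAD genes lie above the line in all 3 mice, Tgfb2 and Tgfb3 in mouse 1 alone, and Tgfbr3 in mice 2 and 3.

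Both signalling receptors were present in every mouse. Tgfbr2, the ligand-binding type II receptor kinase on chromosome 9 (116087695 to 116175363), had 56.6, 69.3 and 58.4 CPM in mice 1, 2 and 3. The 3 mice lay close together, with a coefficient of variation of 11.2%, the lowest of the 10 genes. Tgfbr1, the type I receptor kinase on chromosome 4 (47353222 to 47414926), had 41.2, 24.1 and 23.9 CPM. Mouse 1 was the highest and mice 2 and 3 were almost equal. Per kb of exon Tgfbr2 exceeded Tgfbr1 in 3 of 3 mice, with 7.50 ± 0.842 against 4.55 ± 1.52 CPM per kb (SD, n = 3). The log2 difference was 0.70 ± 0.51, and it was 0.12 in mouse 1. This difference no longer exceeded its spread without mouse 2 (0.50 ± 0.53) or without mouse 3 (0.61 ± 0.69), and per kb of the longest transcript it did not have the same sign in all 3 mice (0.55 ± 0.51).

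Tgfbr3 behaved unlike the other receptor genes. It encodes betaglycan, a co-receptor without a kinase that presents ligand to the type II receptor, and lies on chromosome 5 (107106567 to 107289629). Tgfbr3 had 1, 116 and 29 counts in mice 1, 2 and 3, or 0.0441, 6.60 and 1.11 CPM. The exact binomial intervals of 0.0011 to 0.246, 5.45 to 7.91 and 0.745 to 1.60 CPM did not overlap. Tgfbr3 shares 297 exon bases with Gm43422 on the same strand, so reads from these bases cannot be assigned to 1 of the genes. The 6 NK cell and ILC1 markers summed to 8.47, 243 and 55.0 CPM in mice 1, 2 and 3, and most of that sum was Gzma, the granzyme A gene. Klrb1c, which encodes the NK1.1 antigen that the sort excluded, had 1, 115 and 77 counts, and Prf1, the perforin gene, had 0, 99 and 6. These 3 genes had the order of Tgfbr3 over the mice. Of the 6 markers 2 were detected, Gzma and Ncr1, and Ncr1 was highest in mouse 3 (1.24, 2.10 and 3.57 CPM). Eomes and Tbx21, regulators of these cells, had at most 1 count in a library. The part of such cells in the Tgfbr3 counts was not tested. Without mouse 1 Tgfbr3 met the detection minimum, which raised the number of detected genes to 8.

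Genes with reads in some libraries and few in another were common in the table. Among 10289 gene IDs with at least 50 counts in some library, 10.8% had at most 3 counts in another. Of the 9 TGF-beta genes with at least 50 counts in some library, 2 met this rule, Tgfb3 and Tgfbr3. The rule was set after these values were seen.

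The 3 SMAD genes that transmit the signal were detected at mean levels of 49.5 (Smad2), 52.4 (Smad3) and 55.1 CPM (Smad4). Smad2 had 54.2, 41.3 and 53.0 CPM in mice 1, 2 and 3. Its coefficient of variation of 14.4% was the second lowest of the 10. Smad3 had 76.8, 47.7 and 32.7 CPM and lay highest in mouse 1 and lowest in mouse 3, a range of 2.35-fold. Smad4, the partner shared with the bone morphogenetic protein (BMP) branch, had 44.8, 70.2 and 50.4 CPM. Its highest value was in mouse 2, where Smad2 had its lowest. Smad2 and Smad4 lie on chromosome 18, and Smad3 on chromosome 9 (63646766 to 63757994).

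Smad7, a feedback inhibitor that TGF-beta itself induces, was the lowest detected member. It had 6.26, 9.50 and 1.76 CPM in mice 1, 2 and 3, from 142, 167 and 46 counts. The intervals of 5.28 to 7.38, 8.11 to 11.1 and 1.29 to 2.35 CPM did not overlap, and the highest value was 5.38 times the lowest. At a minimum of 5 CPM in each library Smad7 was lost and 6 genes stayed detected.

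Levels of different genes were compared per kb of summed exon, because full-length libraries give longer transcripts more reads. From high to low, the mean levels were 14.8 ± 3.59 for Smad4, 9.45 ± 4.05 for Smad3, 7.50 ± 0.842 for Tgfbr2, 5.64 ± 0.811 for Smad2 and 4.55 ± 1.52 CPM per kb for Tgfbr1 (SD, n = 3). They were followed by Tgfb1 at 3.14 ± 1.14, Smad7 at 1.29 ± 0.859, Tgfbr3 at 0.395 ± 0.537, Tgfb3 at 0.239 ± 0.414 and Tgfb2 at 0.0799 ± 0.116 CPM per kb. The signal-transmitting SMADs and both receptor kinases stood above Tgfb1 in mean level, but per kb of the longest transcript Tgfb1 had 6.15 CPM, above Tgfbr1 at 5.16 and Smad2 at 6.12. Among 8326 detected genes with a known exon length, 69.2% lay below Smad4, 61.4% below Smad3, 56.5% below Tgfbr2 and 50.7% below Smad2. The share was 45.7% below Tgfbr1, 36.9% below Tgfb1 and 17.4% below Smad7. The detected members thus lay on both sides of the middle of the range. A difference was taken as larger than the spread when all 3 mice had the same sign and the mean exceeded the SD. By that rule 2 of 9 neighbouring pairs in this order differed: Tgfbr2 from Smad2 (0.39 ± 0.35 on the log2 scale) and Smad7 from Tgfbr3. The order of the other 7 neighbours, including Smad4 and Smad3, was not the same in all mice or did not exceed the SD.

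**Figure D2:**
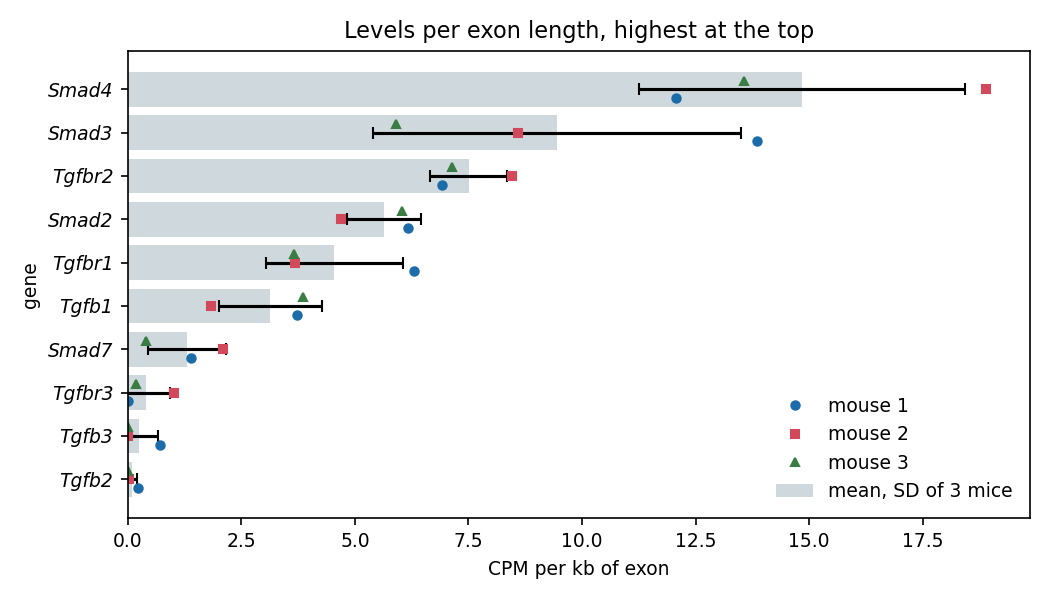
Level of each gene in CPM per kb of summed exon, with the bar at the mean, the line at the SD over 3 mice and a symbol for each mouse. Smad4 has the highest mean at 14.8 CPM per kb, Tgfb1 is the highest ligand at 3.14, and the symbols of neighbouring genes mostly overlap.

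Of 8 pairs of members compared within each library, 6 differed by more than the spread. With 3 libraries the exact two-sided sign-flip test cannot give a p below 0.25, so no pair could pass 0.05. Each of the 6 pairs had this smallest p. Tgfb1 exceeded Tgfb2 and Tgfb3, and Tgfbr1 exceeded Tgfbr3, in 3 of 3 mice. No fold is given for these 3 pairs because the lower gene had at most 3 counts in some library. Smad4 exceeded Smad2 by 1.31 ± 0.52 on the log2 scale of CPM per kb, in 3 of 3 mice, but by 0.14 ± 0.55, within the spread, when CPM was not divided by length. Smad7 was lower than Smad3 by a log2 difference of -2.53 ± 0.62, in 3 of 3 mice. The inhibitory SMAD was thus well below the receptor-activated SMAD in each library. Smad3 exceeded Smad2 in 2 of 3 mice (0.63 ± 0.59, exact p = 0.5), and Smad4 exceeded Smad3 in 2 of 3 (0.68 ± 0.76, exact p = 0.5). In neither pair did all 3 mice have the same sign. Without mouse 3 the first of these was 0.96 ± 0.21, but it was 0.39 ± 0.59 without mouse 1 and 0.54 ± 0.80 without mouse 2. Without mouse 1 the second was 1.11 ± 0.03, but it was 0.47 ± 0.94 without mouse 2 and 0.45 ± 0.91 without mouse 3.

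The TGF-beta genes were then set beside their counterparts in the activin and BMP branches, which share SMAD4. Of 8 such pairs, 6 differed by more than the spread, and in all 6 the TGF-beta gene was higher. This tally depends on the choice of pairs, which left out Smad2 with Smad5. Tgfbr1 exceeded Bmpr1a, a type I BMP receptor, by 2.36 ± 0.45 on the log2 scale, with 4.55 ± 1.52 against 0.458 ± 0.0777 CPM per kb. Smad2 exceeded Smad1, a BMP-activated SMAD, by 1.74 ± 0.66, and Smad3 exceeded Smad1 by 2.36 ± 0.08. The small SD of the second difference depended on the 0.5 added to CPM per kb before the logarithm. With 0.1 added the difference was 2.69 ± 0.24, and with 1 added it was 2.08 ± 0.07. Without division by length it was 2.54 ± 0.25. Smad3 and Smad1 both lay highest in mouse 1 and lowest in mouse 3. Tgfbr1 over Acvr1b, Tgfbr2 over Bmpr2 and Smad7 over Smad6 held in 3 of 3 mice, with no fold because each counterpart had 0 counts in some library.

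In the other 2 pairs the difference was within the spread. Acvr2a, the activin type II receptor, had 32.4, 54.8 and 38.2 CPM in mice 1, 2 and 3, and Tgfbr2 minus Acvr2a was 0.05 ± 0.22 per kb (exact p = 0.75). The sign of this difference turned without mouse 1 (-0.05), and without mouse 2 it was 0.17 ± 0.13. Smad5, a second BMP-activated SMAD, had 84.4, 73.5 and 85.3 CPM, and Smad3 minus Smad5 was -0.28 ± 0.59 (exact p = 0.75). Its sign turned without mouse 3 (0.04), and without mouse 1 it was -0.55 ± 0.51. Mean levels were 7.50 CPM per kb for Tgfbr2 and 7.35 for Acvr2a, and 9.45 for Smad3 and 10.9 for Smad5. Smad2 was not paired with Smad5, and here the BMP gene was higher in each mouse. In mice 1, 2 and 3 Smad5 had 11.4, 9.90 and 11.5 CPM per kb, and Smad2 had 6.17, 4.70 and 6.04. Of the activin type I receptors, Acvr1b had counts in mouse 3 alone (17), and Acvr1c had 0 in every library. Without division by length Tgfbr2 minus Acvr2a and Smad3 minus Smad5 exceeded the spread, at 0.58 ± 0.23 and -0.71 ± 0.62.

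**Figure D3:**
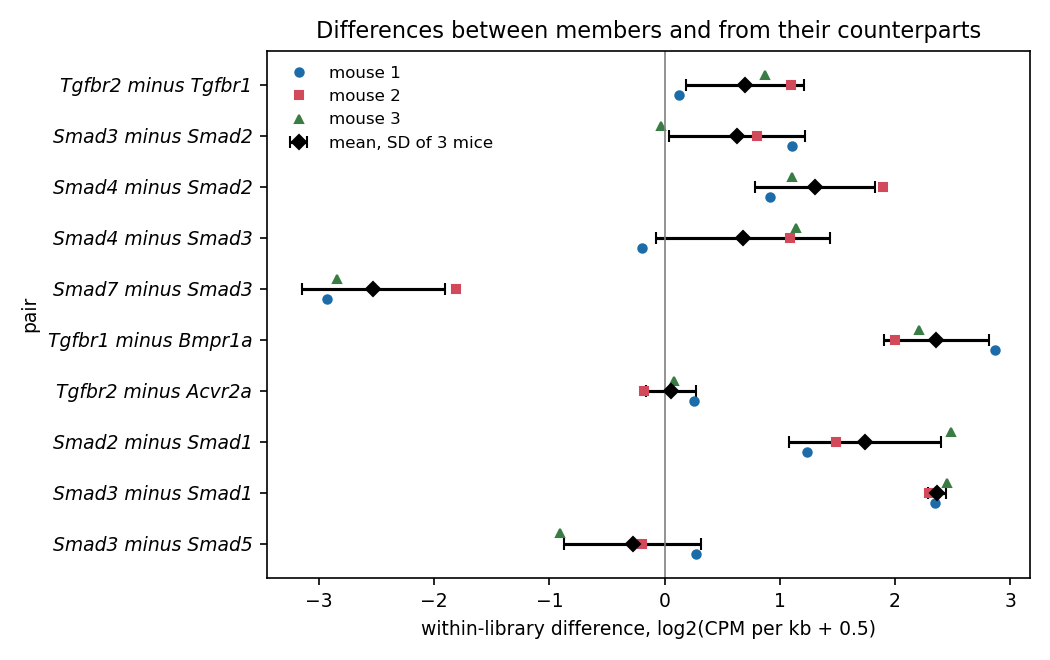
Within-library differences in log2(CPM per kb + 0.5) between named pairs, first gene minus second, with a symbol for each mouse and the mean with its SD over 3 mice. Pairs with at most 3 counts in some library are left out. Smad7 lies below Smad3 by 2.53 on average, Tgfbr1 lies above Bmpr1a by 2.36, and the pairs of Tgfbr2 with Acvr2a and Smad3 with Smad5 straddle 0.

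None of the 7 detected members passed the test for more variability between mice than genes of its abundance have. The spread of each gene was tested in edgeR as its quasi-dispersion relative to the abundance trend. Of all 9175 genes tested, 0.185% passed at an adjusted p below 0.05 (Benjamini-Hochberg). Smad3 had the lowest unadjusted p of the members in edgeR (log2 ratio to the trend 1.25, unadjusted p = 0.139, adjusted p = 0.975). Smad7 came next (0.97, unadjusted p = 0.189 in edgeR) and had the same adjusted p as Smad3. Tgfbr2 (-2.28) and Smad2 (-1.96) lay below the trend. At an unadjusted p below 0.05 the count of members was also 0, and with limma and with DESeq2 dispersion outliers it was 0. Tgfb2, Tgfb3 and Tgfbr3 did not pass the filter on low counts, so the most uneven members were not tested in this fit. Without that filter all 10 entered the fit and 0 passed.

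Around this core, 99 genes of 8 lists of the wider pathway were examined, and 38 were detected (38.4%, against 31.1% of all gene IDs). Detection ranged from 16 of 18 SMAD regulators to 2 of 23 other ligands of the superfamily. Of the 39 genes that could be tested for variability between mice, 0 passed after adjustment and 1, Tab3, had an unadjusted p below 0.05, as did 416 of all 9175 genes tested. Tab3 encodes an adaptor of the kinase TAK1 and had 1.63, 30.0 and 8.71 CPM in mice 1, 2 and 3 (edgeR adjusted p = 0.960).

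The SMAD regulators were the best represented list. Per kb of exon, Strap was the highest with 69.8 ± 10.9 CPM per kb. It encodes an adaptor that binds the receptors and SMAD7. Bambi, a pseudoreceptor without a kinase domain that dampens TGF-beta and BMP signals, had 353, 248 and 329 CPM in mice 1, 2 and 3, or 61.1 ± 10.8 CPM per kb. Tgif1, a corepressor of SMAD complexes, had 53.0 ± 11.4 CPM per kb. All of them stood above Smad4, the highest core gene, in mean level. Skil, a SMAD corepressor that TGF-beta also induces, had 279, 285 and 277 CPM and was almost level between mice. Of the 18 genes, Smurf1, a ubiquitin ligase, and Zfyve9, which encodes the SMAD anchor SARA, were not detected, and Zfyve9 had 0 counts in every library.

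Of 19 genes for accessory receptors and ligand activation, 5 were detected. They were Nrros (13.9 ± 4.82 CPM per kb), which anchors latent TGF-beta on cells, the integrin chains Itgav (12.4 ± 3.99), Itgb1 (11.6 ± 1.87) and Itgb3 (10.1 ± 0.654), and Furin (7.15 ± 1.97), the protease that cleaves the ligand precursor. Lrrc32, which encodes the anchor GARP, had 1 count in all. The integrin chains that pair with Itgav to release TGF-beta were unequal, with Itgb6 at no more than 1 count in a library and Itgb8 at 0. Thbs1, which encodes the activator thrombospondin-1, had 5.12, 0.114 and 0.307 CPM in mice 1, 2 and 3. Mmp2, a matrix protease, had 8.03, 0.171 and 0.0384 CPM. Both were highest in mouse 1, as were Tgfb2 and Tgfb3.

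In the arm that does not use SMADs, 5 of 6 genes were detected, led by Traf4 (8.71 ± 5.02 CPM per kb), Tab2 (6.38 ± 1.76) and the ubiquitin ligase gene Traf6 (5.11 ± 2.00). Of 9 activin and BMP receptors only Acvr2a and Bmpr1a were detected, and of 4 other SMADs Smad5 and Smad1. Of 23 other ligands Bmp2 (4.96 ± 0.865 CPM per kb) and Bmp7 (1.97 ± 1.95) were detected and 14 had no counts. Among all 27179 gene IDs, 12087 had no counts. Bmp2, which encodes a BMP ligand, had 16.7, 15.1 and 21.1 CPM in mice 1, 2 and 3. Of 8 secreted antagonists Dcn, which encodes the matrix proteoglycan decorin, was the only one detected, with 6.84, 14.7 and 17.7 CPM.

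Genes known to be induced by TGF-beta in lymphocytes or fibroblasts were divided, with 5 of 12 detected. Cd69, a tissue retention receptor also induced by activation, had 1276 ± 203 CPM (SD, n = 3). Cdkn1a, a cell cycle inhibitor, had 315 ± 99.0, the transcription factor gene Runx3 98.5 ± 15.7 and Nt5e (CD73) 64.3 ± 11.1 CPM. Itgae (CD103) and Itga1 (CD49a), integrins that TGF-beta induces in lymphocytes, had 0, 12 and 1 counts and 0, 9 and 15 counts in mice 1, 2 and 3. None of these genes responds to TGF-beta alone, and their levels carry no comparison with cells deprived of the ligand.

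**Figure D4:**
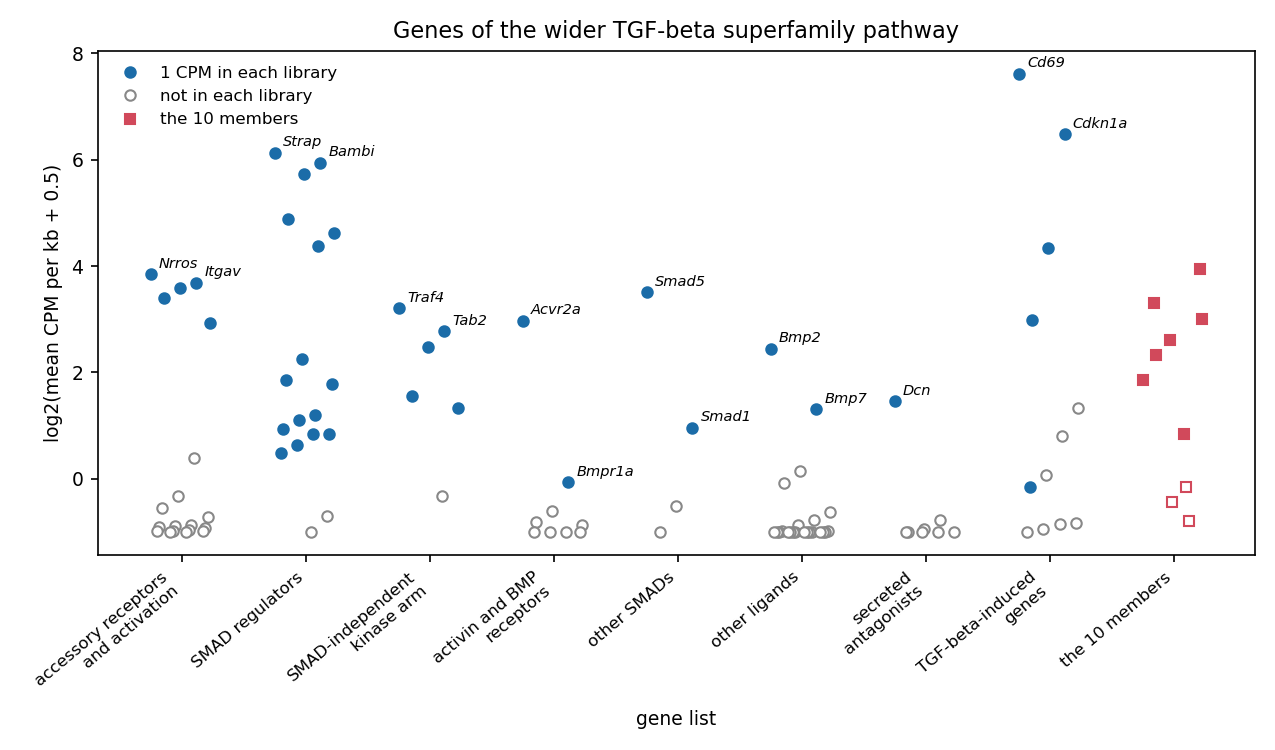
Mean level as log2(mean CPM per kb + 0.5) of each gene of the 8 lists of the wider pathway and of the 10 core genes. Filled symbols are genes with 1 CPM in each library. Of the 18 SMAD regulators 16 are filled, against 2 of 23 other ligands, and Strap and Bambi lie above all core genes.

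Genes closest in level to the 3 highest core genes over all 3 mice were looked up among 8992 genes by the largest absolute log2 difference in any mouse. Smad4 was closest to Ube2f (0.015), Commd2 (0.095) and Fhl2 (0.12). Smad3 was closest to Lias (0.14), Rpl27a (0.16) and Chchd5 (0.17), and Tgfbr2 to Pcif1 (0.036), Ankrd37 (0.055) and Nt5e (0.076). Within 0.5 there were 209, 85 and 371 genes for Smad4, Smad3 and Tgfbr2, so such closeness was common with 3 mice. Rpl27a, a ribosomal protein gene, has processed copies in the genome that could share its reads, so its level is uncertain.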

How the data were processed

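RNA of 3 sorted ILC2 libraries was converted to full-length cDNA with a SMARTer ultra-low-input kit, per the labels' protocols. The authors deposited raw read counts per Entrez gene ID, 1 column per library and not normalized. CASAVA 1.8.2, STAR 2.3.0 and build mm10 are named in the submitters' processing notes. No label or header names the counting program or its treatment of strand and multiply mapped reads.

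Gene IDs were matched to RefSeq GRCm38.p6 (25275 of 27179), whose coordinates are given, and to summed exon lengths of GENCODE M21 (24899). Unnamed IDs held 0.186% to 0.242% of the counts and were kept. CPM used TMM factors of 0.987 to 1.03 in edgeR 4.0.16 (R 4.3.3). Differences used a pseudocount of 0.5 on CPM per kb and an exact sign-flip test. Variability used edgeR's quasi-likelihood fit with an intercept only, on genes passing filterByExpr (minimum count 10), with an upper-tail F test adjusted over all genes. Alternatives were DESeq2 1.42.0, limma 3.58.1, other scalings, lengths, minima and pseudocounts, and leaving out each mouse. Intervals and limits from counts of 0 (3 counts) cover counting error only, since reads carried no molecular identifiers. The labels do not say that the samples came from separate animals, and only the design text names 3 mice, so the spread may be partly technical.

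The genes, lists and pairs were chosen with earlier results of these data known. The text names all 10 members, the 3 highest detected genes of each list, the counterparts in the pairs and the closest genes in level. All other genes of the lists, such as Skil, Furin, Thbs1, Mmp2, Itgae and Tab3, were picked after their values were seen. Many single genes of the lists and markers are not reported here.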

Additional observations from a re-analysis of the deposited data

How the results depend on the processing

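Between 7 and 8 core genes were detected without each mouse in turn, 6 at a minimum of 5 CPM and 9 with at least 1 count in each library. Scaling by library size alone or by DESeq2 size factors gave 7. The wider lists had 39 to 40 detected genes without each mouse and 31 at 5 CPM, in place of 38. The median level of the 10 genes was 3.87 ± 1.03 CPM per kb, and 5.34 when the longest transcript replaced the summed exon length. That change moved Tgfb1 to 6.15 in place of 3.14, above Tgfbr1 at 5.16, because the longest Tgfb1 transcript has 2573 bases and its summed exons 5042. With the longest transcript, Tgfbr2 minus Tgfbr1 was 0.55 ± 0.51, with unlike signs among the mice, which ended that call. Without division by length Smad4 minus Smad2 was 0.14 ± 0.55, within its spread, and all 8 pairs with activin and BMP counterparts exceeded it. Pairs of members larger than the spread numbered 5 to 7 of 8 over the alternatives. No member passed the variability test in any of the 10 alternatives, with adjusted p from 0.727 upwards in edgeR and limma. No paired contrast between conditions was possible because all libraries belong to 1 group. Smad3 without mouse 2 had an unadjusted p of 0.0376 (edgeR adjusted p = 0.949). Among all genes the calls numbered 17, against 0 with a robust prior, 1 without immunoglobulin genes, 30 at a mean of 5 CPM and 13 to 31 without each mouse. Depth limits statements on Tgfb3 in mice 2 and 3 to the 0.171 and 0.115 CPM that a count of 0 allows.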

Other observations

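Several genes of the wider lists had reads in some libraries and few or none in another, as Tgfb3 and Tgfbr3 did. Smad6, the inhibitory SMAD of the BMP branch, had 44, 0 and 0 counts in mice 1, 2 and 3, and Bmpr2, the BMP type II receptor, had 178, 0 and 19. Lefty1, which encodes an inhibitor of nodal signalling, had 0, 41 and 0 counts. Inhba, which encodes an activin chain, had 0, 0 and 41 counts, Acvr1 0, 0 and 27 and Smurf1 0, 2 and 55. Of 45 genes of the wider lists with at least 50 counts in some library, 6 had at most 3 counts in another (13.3%, against 10.8% of all genes). The 6 genes that met this rule were Thbs1, Mmp2, Smurf1, Bmpr2, Gdf15 and Cdkn2b. Their highest library was mouse 1 for 4 genes and mouse 3 for 2. Over the 1110 such genes of the whole table the highest library was mouse 1 for 296, mouse 2 for 237 and mouse 3 for 577. The single genes named with counts here were picked after their values were seen, and no test was made.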
